A study of Homo sapiens with 8 samples.

Results

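HL-60 cells are a human promyelocytic leukaemia line that grows in suspension. The genes described here encode the machinery that brings proteins into mitochondria and folds, cleaves or degrades them there. They were taken from the deposited table by name: rows named TOMM or TIMM with a digit, and PAM16, DNAJC19, GRPEL1, SAMM50, MTX1, MTX2, HSPA9, HSPD1, HSPE1, PMPCA, PMPCB, CHCHD4, TRAP1, CLPP and LONP1. Of 60240 rows, 62 matched by name, and the 40 with a mean normalised value of 10 or more over the 8 libraries were kept, so the members were selected on a measured value. The other 22 rows were TOMM20L and pseudogenes, and 20 of the 22 were at 0 in all 8 libraries. The member just inside the threshold was TOMM6, with a mean of 13.9, and the row just outside was TOMM20P2, with a mean of 1.64. TOMM6 passed mainly through its DMSO libraries, so it had to differ from DMSO, and counts against DMSO are given below both with it and over the other 39. Of the 40 members, 39 were annotated as protein-coding, and the remaining row, TIMM23B-AGAP6, is a readthrough transcript.

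All cells were WT HL-60, collected at 72 h. They received both drugs (the combination), decitabine (3 additions of 100 nM, daily from day 0 to day 2), RG3039 (1 addition of 2 µM on day 0), or DMSO as vehicle, with 2 libraries in each of the 4 groups. Decitabine is a cytosine analogue that inhibits DNA methyltransferases, and RG3039 is an inhibitor of the scavenger mRNA-decapping enzyme DCPS. Wells were seeded in duplicate, and no source used here says that the duplicates were separate cultures before seeding. The p-values therefore measure the spread between these libraries, which may be technical. RNA was read from the 3′ end of polyadenylated transcripts, and each value below is a read count per gene that the authors normalised between libraries.

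Most mitochondrial proteins are made in the cytosol and enter through the TOM complex of the outer membrane. From there the SAM complex inserts outer membrane barrel proteins, the MIA pathway folds cysteine-rich proteins of the intermembrane space, and the small TIM chaperones hand carrier proteins to the TIM22 complex. Proteins with a cleavable presequence pass through TIM23, are pulled into the matrix by the PAM motor, lose the presequence to the processing peptidase MPP, and fold with the help of HSPD1 and HSPE1 or are degraded by LONP1 and CLPP.

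The libraries held an estimated 20711800 to 40948100 reads. The 8 promyelocyte markers examined (MPO, ELANE, AZU1, PRTN3, CTSG, CD33, SPI1 and CEBPE) were detected in every library. Their summed values were 91351 and 102582 with the combination, 161067 and 201549 after decitabine alone, 106746 and 123020.0 after RG3039 alone, and 161295 and 198299 in DMSO. MPO made up 72.8% to 83.5% of this sum, and the other 7 summed to 22133 and 27943 with the combination, 39586 and 43472 after decitabine alone, 26578 and 30263 after RG3039 alone, and 30296 and 32719 in DMSO. The 8 did not move one way: 3 were called lower and 1 higher with the combination, 2 higher with decitabine, and 3 lower and 1 higher with RG3039, with CEBPE higher in all 3 comparisons and CTSG higher with decitabine but lower in the other two. Of 10 markers of other cell types, MS4A1, COL3A1 and KRT5 were at 0 throughout. The summed values of the 10 were 3305 and 3713 with the combination, 783 and 1043 after decitabine alone, 1839.8 and 1979 after RG3039 alone, and 792 and 675 in DMSO. Most of this was PECAM1, with 3085 and 3460 with the combination, 565 and 821 after decitabine alone, 1633 and 1875 after RG3039 alone, and 608 and 582 in DMSO. The sum thus mainly follows PECAM1 and does not by itself show other cell types. The part of either marker shift in the results below was not tested. In bulk libraries, fewer cells with a transcript and less of it per cell cannot be told apart.

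The import and chaperone genes were lower after treatment, most of all after both drugs. Their summed values were 86923 and 85638 with the combination, 96871 and 115099 after decitabine alone, 115283 and 123405 after RG3039 alone, and 141541 and 154669 in DMSO. As a share of all values in the library, this was 0.312% and 0.298% with the combination, 0.347% and 0.387% after decitabine alone, 0.390% and 0.418% after RG3039 alone, and 0.466% and 0.479% in DMSO. The combination libraries were the lowest and the DMSO libraries the highest, and no group overlapped another on this share. The sum and the share weigh members with high values most. HSPD1, the member with the highest mean, had a group mean of 17817 with the combination and 39823 in DMSO.

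Against DMSO, limma on log2(value + 1), with Benjamini-Hochberg adjustment over 17534 genes and a threshold of 0.05, called 26 of the 40 members lower after the combination and none higher; without TOMM6 it was 25 of 39. Among all genes tested, 12.7% were called lower and 11.4% higher in that comparison. The median standard error there was 0.19 over the members and 0.32 over all genes tested. A change of a given size is called more often at a smaller standard error, and the part of this in the counts was not tested. Decitabine alone had 2 members called lower and none higher, where 0.405% of all genes were called lower and 1.74% higher. RG3039 alone had 4 members called lower and none higher, where 3.59% of all genes were called lower and 4.53% higher. The median log2 fold change of the members was -0.74 with the combination, -0.45 with decitabine and -0.36 with RG3039 (-0.73, -0.44 and -0.36 without TOMM6), beside medians over all genes of 0.04, 0.01 and -0.00 in the same order. These 3 comparisons share the DMSO libraries, so their directions are not independent of one another.

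The 2 libraries of a treatment both lay below both DMSO libraries for 36 members with the combination (30.6% of all genes), for 32 with decitabine (23.1%) and for 27 with RG3039 (26.1%). Over the 39 members without TOMM6, the counts were 35, 31 and 26. Among these 39, DMSO had the highest group mean for 30, RG3039 for 6 and the combination for 3. The combination had the lowest for 31, decitabine for 6 and RG3039 for 2. For 14 of the 39, or 35.9%, the 2 combination libraries were the lowest of all 8 and the 2 DMSO libraries the highest, an order held by 5.84% of all genes tested. The smaller standard errors of the members may bear on these counts too, to a degree that was not tested. In the test of any difference among the 4 groups, limma's moderated F-test called 16 members, TOMM6 not among them, where it called 18.3% of all genes.

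Without combination replicate 1 the combination comparison called 12 members and 12.2% of all genes, without combination replicate 2 it called 14 members and 13.6%, and without DMSO replicate 2 it called 15 members and 15.9%, where the fit with all 8 libraries called 26 members and 24.1%. Calls thus became fewer among all genes as well, and TOMM6 was among the 14 and the 15 but not among the 12. For 11 members the call stood without each of the 8 libraries in turn: HSPD1, HSPE1, TRAP1, TOMM22, TOMM5, TOMM20, TOMM40, DNAJC19, PMPCA, TIMM9 and CHCHD4. The median log2 fold change of the combination lay between -0.82 and -0.65 in these 8 fits. In the same fits it lay between -0.54 and -0.40 for decitabine and between -0.45 and -0.25 for RG3039. The number called for either drug alone changed from fit to fit, among all genes as well as among the members. Neither decitabine call stood in all 8 fits, and CHCHD4 was the member that kept its RG3039 call in all 8.

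**Figure D1:**
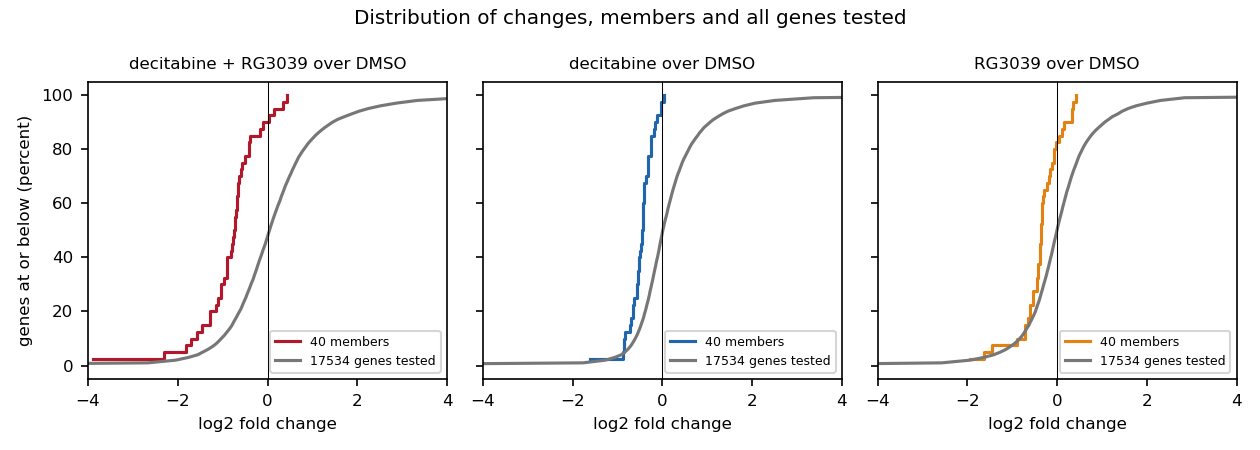
Cumulative share of genes (vertical axis, percent) at or below each log2 fold change (horizontal axis) for the 40 members (coloured steps) and the 17534 genes tested (grey), for the combination, decitabine and RG3039, each over DMSO. The members' curve lies left of the grey curve over most of its height in each panel, with medians of -0.74, -0.45 and -0.36.

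**Figure D2:**
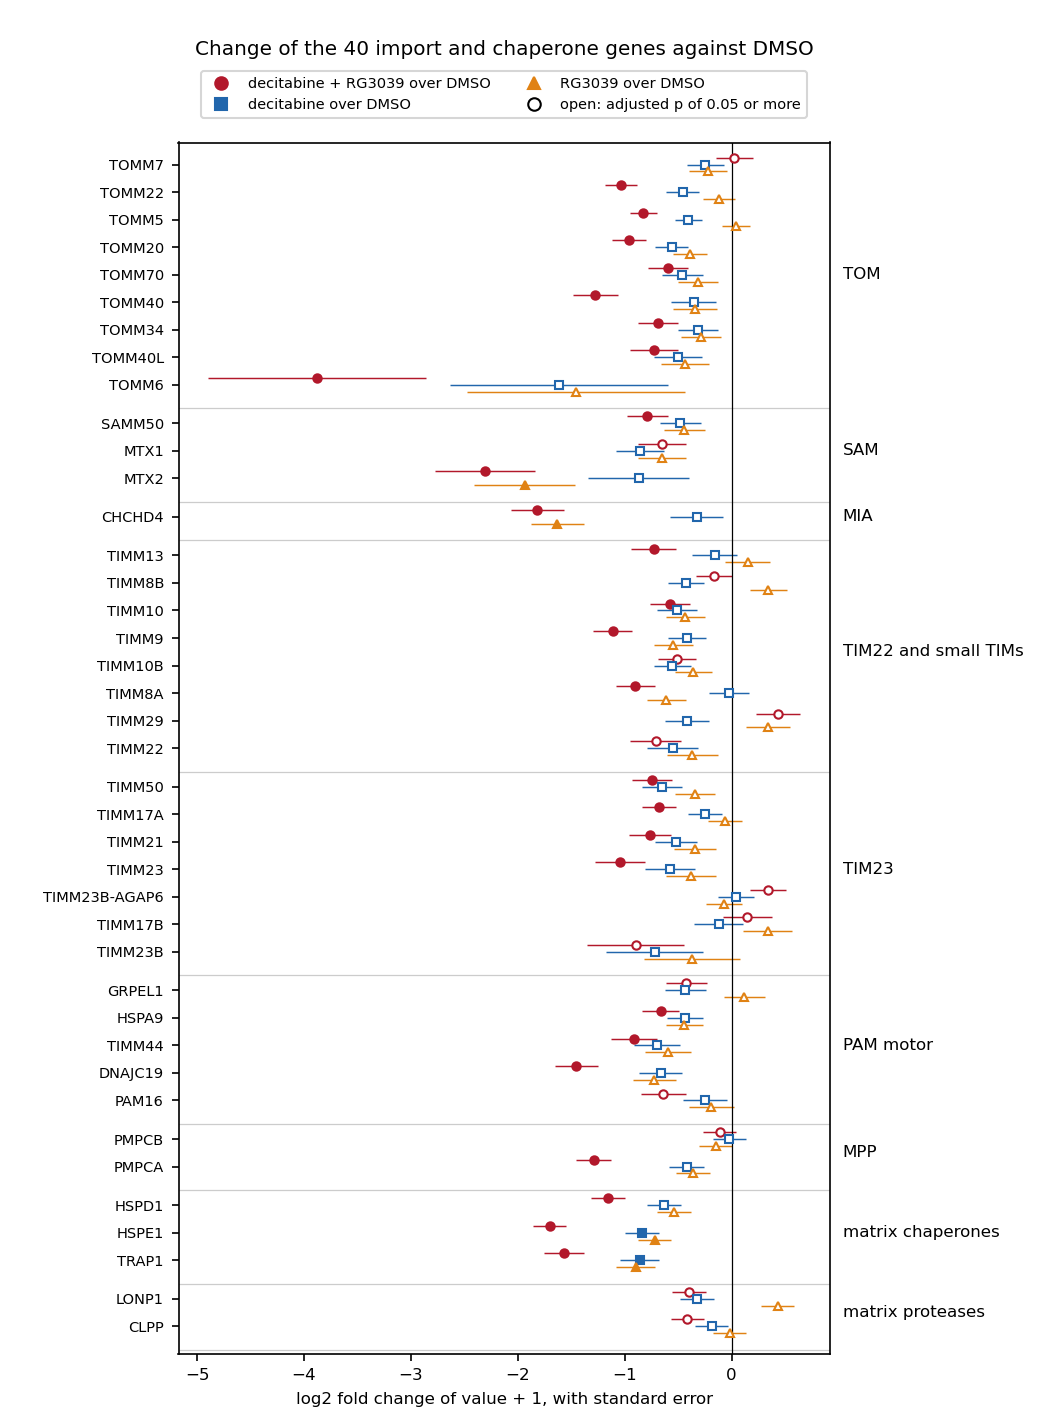
Log2 fold change of value + 1 against DMSO (horizontal axis, bars show the standard error) for the 40 members, grouped by role, with 2 libraries a group; filled symbols have an adjusted p under 0.05. Filled combination symbols appear in every group except the matrix proteases, 26 in all with TOMM6, beside 2 filled decitabine and 4 filled RG3039 symbols.

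The 3 matrix chaperones were lowest with the combination and highest with DMSO. Changes are given below as log2 fold changes ± standard error, and a call is an adjusted p under 0.05. Each fit without 1 library left 3 residual degrees of freedom, and a group of 1 library was taken to vary like the others. HSPD1, the matrix chaperonin that encloses unfolded proteins, had 18132 and 17502 with the combination, 22181 and 29544 after decitabine alone, 25471 and 29319.5 after RG3039 alone, and 37772 and 41874 in DMSO. Both combination libraries were the lowest of the 8 and both DMSO libraries the highest. The log2 fold change was -1.16 ± 0.16, adjusted p = 0.000999 for the combination, -0.64 ± 0.16, adjusted p = 0.0761 for decitabine and -0.54 ± 0.16, adjusted p = 0.0727 for RG3039, so the single-drug differences missed the threshold.

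HSPE1, the lid of that chaperonin, had 3715 and 3554 with the combination, 6584 and 6673 after decitabine alone, 8138 and 6348 after RG3039 alone, and 10794 and 12968 in DMSO. The group means were 3634 ± 114 with the combination, 6629 ± 62.6 with decitabine, 7243 ± 1266 with RG3039 and 11881 ± 1537 with DMSO (SD, n = 2 each). No treated library reached a DMSO library, and no combination library reached a single-drug library. HSPE1 fell with the combination to 0.307 times the DMSO level on the fitted scale (log2 -1.70 ± 0.16, adjusted p = 0.000153). It fell with decitabine (-0.84 ± 0.16, adjusted p = 0.0301) and with RG3039 (-0.72 ± 0.16, adjusted p = 0.0233). The decitabine call was lost at adjusted p = 0.0683 and 0.0705 without combination replicates 1 and 2, 0.146 and 0.133 without decitabine replicates 1 and 2, and 0.144 without DMSO replicate 2, and the RG3039 call at 0.166 without RG3039 replicate 2 and 0.126 without DMSO replicate 2. HSPE1 was also lower with the combination than with decitabine alone (-0.87 ± 0.16, adjusted p = 0.0126) and than with RG3039 alone (-0.98 ± 0.16, adjusted p = 0.0164). The first of these calls was lost at 0.0813 and 0.0949 without combination replicates 1 and 2 and 0.0666 and 0.0598 without decitabine replicates 1 and 2, the second at 0.144 and 0.131 without combination replicates 1 and 2 and 0.162 without RG3039 replicate 1. An annotated readthrough transcript, HSPE1-MOB4, overlaps the gene, and the sources used here do not say how its reads were assigned.

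TRAP1, the mitochondrial member of the HSP90 family, had 1224 and 1402 with the combination, 2105 and 2180.3 after decitabine alone, 2008 and 2176 after RG3039 alone, and 3256 and 4649.6 in DMSO. All treated libraries lay below both DMSO libraries, and the decitabine and RG3039 libraries overlapped. TRAP1 fell with the combination (-1.57 ± 0.18, adjusted p = 0.000445), with decitabine (-0.86 ± 0.18, adjusted p = 0.0482) and with RG3039 (-0.90 ± 0.18, adjusted p = 0.0184). Of the 8 fits without 1 library, the decitabine call held only in the fit without DMSO replicate 1, at adjusted p = 0.0193, and reached 0.194 without DMSO replicate 2. The RG3039 call was lost at 0.114 and 0.0806 without RG3039 replicates 1 and 2 and 0.0919 without DMSO replicate 2. TRAP1 was lower with the combination than with decitabine (-0.71 ± 0.18, adjusted p = 0.0493), a call that held only when 1 of the DMSO libraries was left out and reached 0.255 without combination replicate 1. HSPE1 and TRAP1 were the only members called for decitabine.

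**Figure D3:**
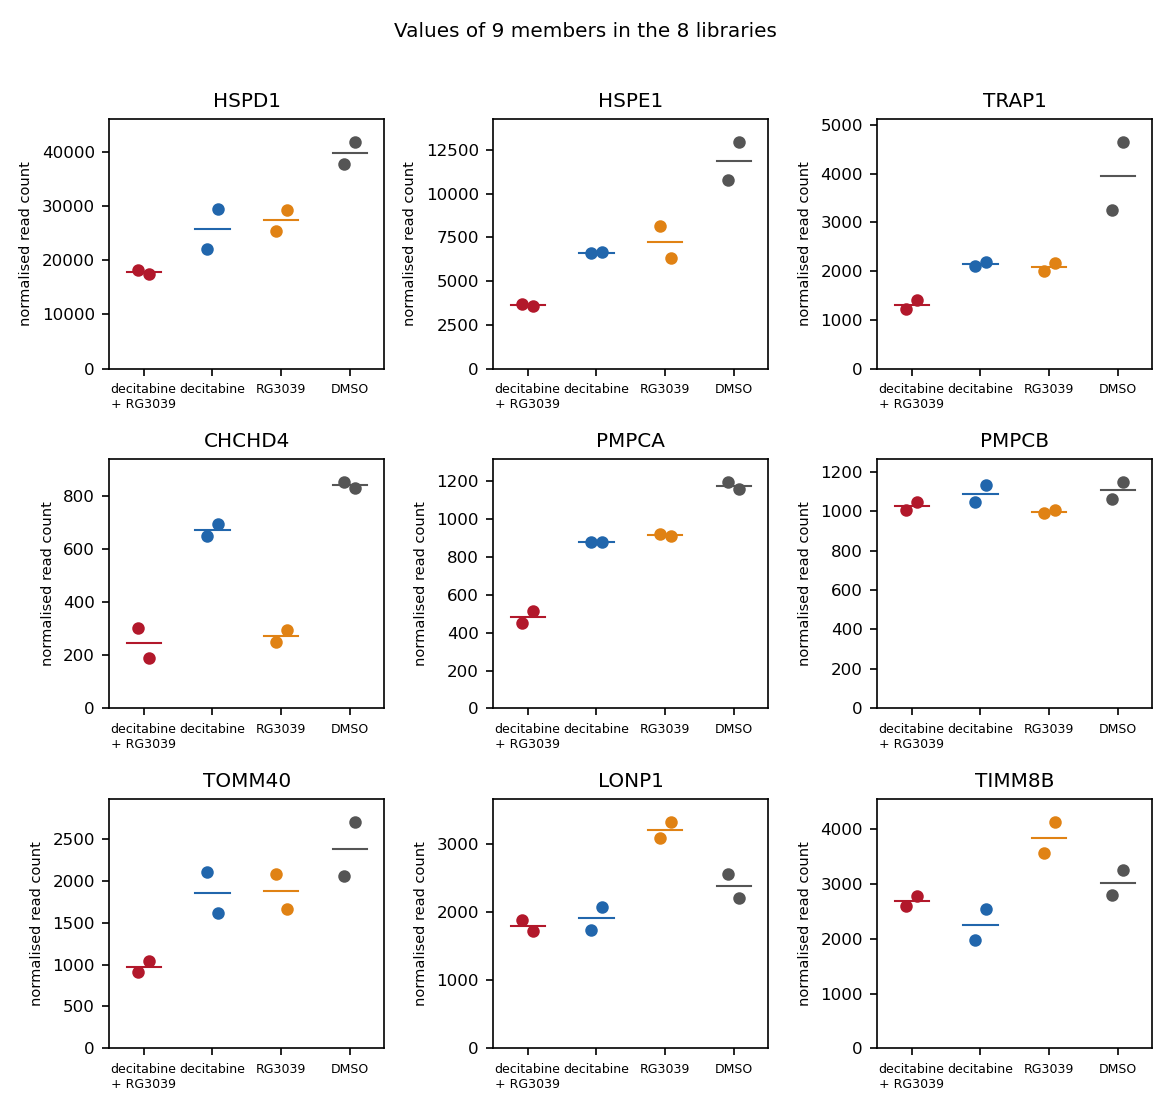
Normalised read count (vertical axis, linear from 0) of 9 members in the 8 libraries; points are libraries and lines are group means, n = 2 each. HSPE1 and PMPCA step down in the combination below both single drugs, CHCHD4 is low in both groups that received RG3039, and PMPCB stays between 988 and 1148.

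Of the 9 TOM members, 8 were called lower with the combination (7 of 8 without TOMM6), and none was called for either drug alone. TOMM20 and TOMM70 are receptors for incoming proteins, TOMM22 is a receptor that also organises the complex, TOMM40 is the channel, and TOMM5, TOMM6 and TOMM7 are small subunits around it. TOMM40 had 907 and 1049 with the combination, 2109 and 1614 after decitabine alone, 2089.9 and 1661 after RG3039 alone, and 2058 and 2709 in DMSO. Both combination libraries lay below the other 6, while 1 decitabine and 1 RG3039 library lay above DMSO replicate 1. TOMM40 fell with the combination (-1.27 ± 0.21, adjusted p = 0.0023), and the differences for decitabine (-0.36 ± 0.21, adjusted p = 0.403) and RG3039 (-0.34 ± 0.21, adjusted p = 0.369) missed the threshold. It was lower with the combination than with decitabine (-0.92 ± 0.21, adjusted p = 0.0284), a call lost at 0.179 and 0.101 without combination replicates 1 and 2 and 0.17 and 0.0507 without decitabine replicates 1 and 2.

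TOMM22 had 3240.2 and 3092 with the combination, 4712 and 4727 after decitabine alone, 6463 and 5531 after RG3039 alone, and 7291 and 5762 in DMSO. TOMM5 had 2655 and 2871 with the combination, 3749 and 3644 after decitabine alone, 5179.9 and 4915 after RG3039 alone, and 5090.4 and 4696 in DMSO. In both genes the combination libraries were the lowest of the 8, and the RG3039 libraries overlapped the DMSO libraries. The change against DMSO with the combination was -1.03 ± 0.15, adjusted p = 0.00145 for TOMM22 and -0.82 ± 0.13, adjusted p = 0.00198 for TOMM5. RG3039 alone gave -0.12 ± 0.15, adjusted p = 0.707 for TOMM22 and 0.05 ± 0.13, adjusted p = 0.875 for TOMM5. Both genes were lower with the combination than with RG3039 alone, with log2 differences of -0.92 ± 0.15, adjusted p = 0.0192 for TOMM22 and -0.87 ± 0.13, adjusted p = 0.014 for TOMM5. These 2 calls ended when any combination or RG3039 library was left out, with adjusted p up to 0.176 for TOMM22 (without RG3039 replicate 1) and up to 0.152 for TOMM5 (without combination replicate 1).

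TOMM20 had 2472 and 2639.7 with the combination, 3680.0 and 3082 after decitabine alone, 4062 and 3551 after RG3039 alone, and 4568 and 5399.9 in DMSO, which again put the combination libraries lowest and the DMSO libraries highest. Its change with the combination was -0.96 ± 0.16, adjusted p = 0.00231. TOMM70 had 2289 and 2909 with the combination, 2609 and 3076 after decitabine alone, 3056 and 3223 after RG3039 alone, and 3342 and 4548 in DMSO, and combination replicate 2 lay inside the range of the single-drug libraries. The TOMM70 call (-0.60 ± 0.19, adjusted p = 0.0474) held only in the fit without DMSO replicate 1, at 0.0231, and reached 0.285 without combination replicate 1.

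TOMM34, a cytosolic co-chaperone of precursor proteins, had 576 and 569 with the combination, 678 and 813 after decitabine alone, 812 and 699.5 after RG3039 alone, and 847 and 1002 in DMSO. TOMM40L, a channel paralogue of TOMM40, had 234 and 269.6 with the combination, 287 and 301 after decitabine alone, 348 and 273 after RG3039 alone, and 431 and 403 in DMSO. For both genes the combination libraries were the lowest, with changes against DMSO of -0.69 ± 0.19, adjusted p = 0.0257 for TOMM34 and -0.73 ± 0.22, adjusted p = 0.0414 for TOMM40L. The TOMM34 call was lost at 0.11 and 0.107 without combination replicates 1 and 2 and 0.126 without DMSO replicate 2. The TOMM40L call held only without RG3039 replicate 2 and reached 0.204 without combination replicate 1. TOMM6 was near the detection limit, with 0 and 3.51 with the combination, 8.09 and 10.4 after decitabine alone, 13.4 and 7.96 after RG3039 alone, and 49.9 and 18.1 in DMSO. Its change of -3.88 ± 1.02, adjusted p = 0.0222 was lost at 0.117 without combination replicate 1 and 0.132 without DMSO replicate 1.

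TOMM7, a small subunit that also takes part in holding PINK1 at the outer membrane, was the 1 TOM member not called with the combination. It had 17160.5 and 16534 with the combination, 11814 and 16496 after decitabine alone, 12762 and 15740.0 after RG3039 alone, and 15777 and 17327 in DMSO. The combination libraries overlapped the DMSO libraries. Its log2 fold change with the combination was 0.03 ± 0.18, adjusted p = 0.935, with a 95% interval of -0.37 to 0.42, and none of the 7 comparisons called it.

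Of the 3 SAM members, SAMM50 and MTX2 fell with the combination. SAMM50, the channel of the complex, had 1032 and 1013 with the combination, 1128 and 1424 after decitabine alone, 1127 and 1495 after RG3039 alone, and 1659 and 1879 in DMSO. The DMSO libraries were the highest and the combination libraries the lowest. The call (-0.79 ± 0.19, adjusted p = 0.0158) was lost at 0.0777 and 0.0786 without combination replicates 1 and 2 and 0.0832 without DMSO replicate 2. MTX2, a metaxin on the cytosolic side of SAM, had 49.9 and 91.3 with the combination, 256 and 133 after decitabine alone, 129 and 59.5 after RG3039 alone, and 365 and 314 in DMSO, with wide spread within each treated group. MTX2 fell with the combination (-2.31 ± 0.47, adjusted p = 0.00697) and with RG3039 alone (-1.94 ± 0.47, adjusted p = 0.0355). The combination call was lost at 0.0598 without combination replicate 1, and the RG3039 call at 0.203 without RG3039 replicate 2 and 0.122 and 0.126 without DMSO replicates 1 and 2. MTX1, its partner, had 658 and 802 with the combination, 596 and 668 after decitabine alone, 670.4 and 790.1 after RG3039 alone, and 938 and 1389.5 in DMSO; its differences were -0.65 ± 0.22, adjusted p = 0.0636 for the combination, -0.85 ± 0.22, adjusted p = 0.0865 for decitabine and -0.65 ± 0.22, adjusted p = 0.118 for RG3039, none past the threshold.

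CHCHD4, the human MIA40 oxidoreductase that introduces disulfide bonds into imported proteins, had 301 and 188 with the combination, 648 and 696 after decitabine alone, 251 and 294 after RG3039 alone, and 853 and 831 in DMSO. The 4 libraries that received RG3039, with or without decitabine, lay between 188 and 301, and the 4 that did not lay between 648 and 853. CHCHD4 fell with the combination (-1.82 ± 0.25, adjusted p = 0.000923) and with RG3039 (-1.63 ± 0.25, adjusted p = 0.00433), and decitabine gave -0.33 ± 0.25, adjusted p = 0.525. Both calls stood without each library in turn. CHCHD4 was lower with the combination than with decitabine (-1.49 ± 0.25, adjusted p = 0.00845) and higher with decitabine than with RG3039 (1.30 ± 0.25, adjusted p = 0.0178). The first of these calls was lost at 0.0643 without combination replicate 2 and 0.0523 and 0.0526 without decitabine replicates 1 and 2, the second at 0.0844 and 0.109 without decitabine replicates 1 and 2 and 0.12 and 0.0696 without RG3039 replicates 1 and 2. The combination and RG3039 alone differed by -0.19 ± 0.25, with a 95% interval of -0.74 to 0.36 (adjusted p = 0.753).

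Of the 8 members of the TIM22 pathway, 4 fell with the combination. TIMM9 and TIMM10 form the hexameric chaperone that carries hydrophobic proteins across the intermembrane space, and TIMM8A and TIMM13 form another. TIMM9 had 434 and 458 with the combination, 733 and 712 after decitabine alone, 723 and 607 after RG3039 alone, and 1017 and 917 in DMSO. TIMM9 fell with the combination (-1.11 ± 0.18, adjusted p = 0.00213) and was lower there than with decitabine alone (-0.69 ± 0.18, adjusted p = 0.0468), a call that was lost in every fit that left out 1 library, with adjusted p from 0.0516 without a DMSO library to 0.218 without combination replicate 1. TIMM10 had 852 and 779.9 with the combination, 773 and 942 after decitabine alone, 819.6 and 988 after RG3039 alone, and 1143 and 1291 in DMSO, so its 6 treated libraries overlapped one another and lay below DMSO. Its call (-0.57 ± 0.18, adjusted p = 0.0488) held only without decitabine replicate 1 and reached 0.197 without combination replicate 2.

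TIMM8A had 343 and 313 with the combination, 590.4 and 614 after decitabine alone, 401 and 400.2 after RG3039 alone, and 638 and 587 in DMSO. The decitabine libraries overlapped DMSO, and both groups that received RG3039 lay below them. TIMM8A changed by -0.90 ± 0.18, adjusted p = 0.00727 with the combination, -0.02 ± 0.18, adjusted p = 0.968 with decitabine and -0.61 ± 0.18, adjusted p = 0.0788 with RG3039. It was also lower with the combination than with decitabine (-0.88 ± 0.18, adjusted p = 0.0225). The combination call was lost at 0.0535 without combination replicate 2, and the call against decitabine at 0.102 and 0.134 without combination replicates 1 and 2 and 0.0891 and 0.0896 without decitabine replicates 1 and 2. TIMM13 had 5762 and 4459 with the combination, 6545 and 8654 after decitabine alone, 8978 and 9693 after RG3039 alone, and 10025 and 7018 in DMSO. Its combination call (-0.73 ± 0.21, adjusted p = 0.0328) held only when 1 of the decitabine libraries or DMSO replicate 2 was left out, and reached 0.199 without combination replicate 2.

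TIMM8B, a paralogue of TIMM8A, had 2605 and 2779.7 with the combination, 1977 and 2544 after decitabine alone, 3563 and 4139.6 after RG3039 alone, and 2808 and 3251 in DMSO. The RG3039 libraries were the highest and the decitabine libraries the lowest. TIMM8B was lower with decitabine than with RG3039 (-0.78 ± 0.17, adjusted p = 0.0324), a call lost at 0.0631 and 0.0641 without combination replicates 1 and 2, 0.179 without decitabine replicate 1, and 0.093 and 0.178 without RG3039 replicates 1 and 2, and no difference from DMSO passed. TIMM29, a subunit that links TIM22 to TOM, had 591 and 482 with the combination, 295 and 298 after decitabine alone, 459.8 and 545 after RG3039 alone, and 375 and 417 in DMSO. It was the only member called higher in a comparison of the combination, against decitabine (0.85 ± 0.21, adjusted p = 0.0393). That call held only when 1 of the DMSO libraries was left out and reached 0.244 without combination replicate 1. TIMM22, the channel, and TIMM10B, a further small TIM, gave -0.71 ± 0.24 and -0.51 ± 0.18 with the combination (adjusted p = 0.0579 and 0.0627).

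Of the 7 TIM23 members, 4 fell with the combination, each to below both DMSO libraries. TIMM23 is the channel-forming subunit with TIMM17A, TIMM50 is the presequence receptor, and TIMM21 couples the complex to TOM. TIMM23 had 721 and 822 with the combination, 947 and 1201 after decitabine alone, 1247 and 1199 after RG3039 alone, and 1246 and 2023 in DMSO, and fell with the combination (-1.04 ± 0.24, adjusted p = 0.0111). TIMM50 had 2025 and 1867 with the combination, 1884 and 2285 after decitabine alone, 2204 and 3003 after RG3039 alone, and 3036 and 3491 in DMSO. TIMM17A had 887 and 892 with the combination, 1191 and 1206 after decitabine alone, 1485 and 1256 after RG3039 alone, and 1397 and 1453 in DMSO. The changes with the combination were -0.74 ± 0.19, adjusted p = 0.0175 for TIMM50 and -0.68 ± 0.16, adjusted p = 0.0121 for TIMM17A.

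TIMM21 had 928 and 902 with the combination, 971 and 1214 after decitabine alone, 1174 and 1289.8 after RG3039 alone, and 1329 and 1821 in DMSO, with -0.77 ± 0.20, adjusted p = 0.0201 for the combination. The TIMM23 call was lost at 0.08 without combination replicate 1 and 0.0646 without DMSO replicate 2. The calls of TIMM50, TIMM17A and TIMM21 ended when combination replicate 1, combination replicate 2 or DMSO replicate 2 was left out, with adjusted p in that order of 0.0682, 0.0999 and 0.0931 for TIMM50, 0.0715, 0.0633 and 0.052 for TIMM17A, and 0.0878, 0.0946 and 0.119 for TIMM21.

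TIMM23 has a near-identical copy, TIMM23B, and the readthrough TIMM23B-AGAP6 overlaps that copy, so the division of reads among the 3 rows is uncertain. TIMM23B had 169.9 and 103 with the combination, 246 and 90.5 after decitabine alone, 167 and 218 after RG3039 alone, and 263 and 232 in DMSO. TIMM23B-AGAP6 had 983 and 1163 with the combination, 902 and 841 after decitabine alone, 773 and 837 after RG3039 alone, and 823 and 869 in DMSO, with the combination libraries above all others. Summed over TIMM23 and TIMM23B, the change with the combination was -1.02 ± 0.20, adjusted p = 0.00538. Summed over all 3 rows it was -0.45 ± 0.17, adjusted p = 0.0824, which ended the call. TIMM17B, the other form of TIMM17, gave 0.15 ± 0.23, adjusted p = 0.693, so no change of it was detected beside the fall of TIMM17A; the difference between the 2 forms was not tested.

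Of the 5 PAM members, 3 fell with the combination. DNAJC19, a J-protein that stimulates the motor's ATPase, had 532 and 634 with the combination, 1091 and 930.1 after decitabine alone, 1127 and 826 after RG3039 alone, and 1519.8 and 1670.3 in DMSO. The combination libraries were the lowest and the DMSO libraries the highest. DNAJC19 fell with the combination to 0.365 times the DMSO level (-1.45 ± 0.20, adjusted p = 0.00102). It was lower than with decitabine alone (-0.79 ± 0.20, adjusted p = 0.045), a call that held only when 1 of the RG3039 libraries was left out and reached 0.247 without combination replicate 1. HSPA9, the HSP70 of the matrix and the motor's engine, had 2830.0 and 2783 with the combination, 2982 and 3625 after decitabine alone, 2984 and 3598 after RG3039 alone, and 3995 and 4951 in DMSO. TIMM44, which tethers HSPA9 to TIM23, had 1556 and 1514 with the combination, 1549.7 and 2048 after decitabine alone, 1877 and 1944 after RG3039 alone, and 2335 and 3558 in DMSO. Both genes separated DMSO from all 6 treated libraries. The HSPA9 call (-0.66 ± 0.17, adjusted p = 0.0194) was lost at 0.0921 and 0.0934 without combination replicates 1 and 2 and 0.109 without DMSO replicate 2. The TIMM44 call (-0.91 ± 0.21, adjusted p = 0.0136) was lost at 0.0684 and 0.0726 without combination replicates 1 and 2 and 0.0812 without DMSO replicate 2.

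GRPEL1, the nucleotide exchange factor of HSPA9, had 3908 and 4305 with the combination, 3504 and 4745 after decitabine alone, 5185 and 6889 after RG3039 alone, and 5119 and 5908 in DMSO. Its RG3039 and DMSO libraries overlapped, and the combination gave -0.42 ± 0.19, adjusted p = 0.144. PAM16, the partner of DNAJC19, gave -0.64 ± 0.21, adjusted p = 0.0535.

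Of the 2 MPP subunits, PMPCA was called with the combination and PMPCB was not. PMPCA, the subunit that binds the presequence, had 451 and 513 with the combination, 879 and 879 after decitabine alone, 922 and 912 after RG3039 alone, and 1196 and 1158 in DMSO. Both combination libraries lay below the other 6, both DMSO libraries above them, and the single-drug libraries stood between. PMPCA fell with the combination to 0.409 times the DMSO level (-1.29 ± 0.16, adjusted p = 0.000659). The single drugs gave -0.42 ± 0.16, adjusted p = 0.216 for decitabine and -0.36 ± 0.16, adjusted p = 0.225 for RG3039. PMPCA was lower with the combination than with decitabine (-0.87 ± 0.16, adjusted p = 0.0142) and than with RG3039 (-0.93 ± 0.16, adjusted p = 0.0243). The call against decitabine was lost at 0.113 and 0.0656 without combination replicates 1 and 2 and 0.073 and 0.0609 without decitabine replicates 1 and 2. The call against RG3039 was lost at 0.203 and 0.11 without combination replicates 1 and 2 and 0.17 and 0.0825 without RG3039 replicates 1 and 2.

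PMPCB, the catalytic subunit, had 1005 and 1044 with the combination, 1046 and 1130.1 after decitabine alone, 988 and 1003 after RG3039 alone, and 1063 and 1148 in DMSO. Its change with the combination was -0.11 ± 0.15, adjusted p = 0.659, with a 95% interval of -0.45 to 0.24, and it was called in no comparison. The ratio of the PMPCA value to the PMPCB value was 0.449 and 0.491 with the combination, 0.841 and 0.778 after decitabine alone, 0.933 and 0.909 after RG3039 alone, and 1.13 and 1.01 in DMSO. Because 3′ reads do not give levels that compare between genes, this ratio serves only to compare libraries. It was lowest in both combination libraries and highest in both DMSO libraries, and the difference in change between the subunits was not tested.

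The 2 matrix proteases were not called against DMSO. LONP1, which degrades damaged and unassembled matrix proteins, had 1883 and 1729.7 with the combination, 1737 and 2083 after decitabine alone, 3089 and 3332 after RG3039 alone, and 2564 and 2210.4 in DMSO. The RG3039 libraries were the highest of the 8, and the combination libraries overlapped the decitabine libraries. LONP1 was lower with the combination than with RG3039 (-0.83 ± 0.16, adjusted p = 0.0331) and lower with decitabine than with RG3039 (-0.75 ± 0.16, adjusted p = 0.0274). Against DMSO it gave -0.40 ± 0.16, adjusted p = 0.0966 for the combination, -0.32 ± 0.16, adjusted p = 0.316 for decitabine and 0.43 ± 0.16, adjusted p = 0.136 for RG3039. The call between the combination and RG3039 was lost at 0.185 and 0.183 without combination replicates 1 and 2 and 0.17 and 0.113 without RG3039 replicates 1 and 2, and the call between decitabine and RG3039 held only without a DMSO library and reached 0.152 without decitabine replicate 1. CLPP, the proteolytic core of the other main protease, had 1831 and 1522 with the combination, 1859 and 2053 after decitabine alone, 2232 and 2156 after RG3039 alone, and 2293 and 2153 in DMSO, with -0.41 ± 0.15, adjusted p = 0.0801 for the combination.

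The combination was lower than each drug alone in most members. Against decitabine, 8 members were called lower and 1 higher, where 3.39% of all genes were called lower and 3.94% higher; 32 of 40 fold changes were negative, with a median of -0.28. Against RG3039, 5 members were called lower and none higher, where 0.787% of all genes were called lower; 36 of 40 were negative, with a median of -0.42. HSPE1 and PMPCA were called lower in both comparisons. No call in either comparison stood without each library in turn. Leaving out a library of the groups compared left 1 library in a group, and calls became fewer among all genes as well. Without combination replicate 1, 1 of 9 calls was made against decitabine and 0 of 5 against RG3039; without combination replicate 2, 0 calls were made in either comparison. Without decitabine replicate 1 or 2, 0 were made against decitabine, and without RG3039 replicates 1 and 2, 0 and 1 against RG3039. Without DMSO replicate 1, 8 members were called against RG3039.

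Between the single drugs, 2 members were lower with decitabine than with RG3039 (TIMM8B and LONP1) and 1 was higher (CHCHD4), where 1.92% of all genes were called lower and 2.67% higher. The median difference of the members, decitabine minus RG3039, was -0.13. It was -0.06 without decitabine replicate 1, -0.21 without decitabine replicate 2 and -0.07 with quantile normalisation. In the fits without a decitabine, RG3039 or combination library, fewer of all genes were called between the single drugs. The 3 calls came down to 0 without decitabine replicate 1, RG3039 replicate 1 or RG3039 replicate 2, and to 1 without combination replicate 1, combination replicate 2 or decitabine replicate 2.

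The interaction compared the effect of the combination with the sum of the 2 single-drug effects. Its median over the members was 0.00, with 20 positive and 20 negative values. No member and no gene was called, at smallest adjusted p-values of 0.854 and 0.124, and 4 members and 1014 genes had an unadjusted p under 0.05 in limma. For HSPE1 the interaction was -0.15 ± 0.22, adjusted p = 0.938, and for PMPCA it was -0.51 ± 0.23, adjusted p = 0.88. The standard error of the interaction had a median of 0.26 over the members. With 2 libraries a group, the lack of calls does not show that the effects were additive.

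Several members share a start region with a gene on the other strand. By RefSeq starts on GRCh38.p14, 14 members had a neighbour that starts on the opposite strand within 500 bases, and HSPD1 and HSPE1 are neighbours of each other, with starts 105 bases apart on chromosome 2. The stretches between the starts of 3 such pairs, and the stretches before the starts of PMPCB, TRAP1 and LONP1, are shown because these genes carry the contrasts described above: HSPD1 and HSPE1 among the chaperones, CHCHD4 for its fall with RG3039, the 2 MPP subunits, TRAP1 for its single-drug calls, and LONP1 for its difference between the drugs. All are from RefSeq (GRCh38.p14), 5′ to 3′ in the direction of the named gene, and capitals mark the motif matches named after them. LONP1 has 2 RefSeq starts: the stretch shown lies before the downstream one, and its opposite-strand neighbour CATSPERD starts 185 bases from the other, beyond that stretch.
HSPE1, chr2:197500275-197500378, plus strand: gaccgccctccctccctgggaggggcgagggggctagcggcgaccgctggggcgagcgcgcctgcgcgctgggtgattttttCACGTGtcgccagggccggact
CHCHD4, chr3:14124871-14125051, minus strand: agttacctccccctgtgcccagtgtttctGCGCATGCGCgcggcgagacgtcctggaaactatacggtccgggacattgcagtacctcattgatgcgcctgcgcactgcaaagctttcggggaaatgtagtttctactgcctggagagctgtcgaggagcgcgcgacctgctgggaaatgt
PMPCA, chr9:136410615-136410657, plus strand: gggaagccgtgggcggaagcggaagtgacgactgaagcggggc
PMPCB, chr7:103297185-103297434, plus strand: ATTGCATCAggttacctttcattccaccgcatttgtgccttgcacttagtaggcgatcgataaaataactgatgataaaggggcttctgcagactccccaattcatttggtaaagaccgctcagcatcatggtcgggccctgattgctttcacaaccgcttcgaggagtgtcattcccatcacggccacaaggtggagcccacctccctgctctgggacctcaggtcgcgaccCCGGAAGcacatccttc
TRAP1, chr16:3717525-3717774, minus strand: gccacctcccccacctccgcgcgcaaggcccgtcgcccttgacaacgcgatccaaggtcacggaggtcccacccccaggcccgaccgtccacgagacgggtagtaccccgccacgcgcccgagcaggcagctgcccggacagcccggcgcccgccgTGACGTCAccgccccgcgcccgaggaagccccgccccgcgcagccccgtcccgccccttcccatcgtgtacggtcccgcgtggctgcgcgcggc
LONP1, chr19:5720147-5720396, minus strand: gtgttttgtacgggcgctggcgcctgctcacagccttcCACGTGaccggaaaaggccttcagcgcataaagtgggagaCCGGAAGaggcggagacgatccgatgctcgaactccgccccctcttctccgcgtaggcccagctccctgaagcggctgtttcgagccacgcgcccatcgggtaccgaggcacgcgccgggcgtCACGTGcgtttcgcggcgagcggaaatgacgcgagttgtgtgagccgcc

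The capitals mark the E-box CACGTG in the HSPE1 stretch, the NRF1 site GCGCATGCGC in that of CHCHD4, the C/EBP-ATF site TGATGCAAT (here on the other strand) and the ETS site CCGGAAG in that of PMPCB, the CRE TGACGTCA in that of TRAP1, and a pair of E-boxes with an ETS site in that of LONP1. The 43 bases before PMPCA held none of the motifs searched. Its window held a YY1 site outside that stretch. Both strands were searched in windows of 300 bases around each RefSeq start, which were found for 36 of the 40 members; GRPEL1, TOMM5, CLPP and TIMM8B were not in the table. CCGGAAG was in 15 of the 36 windows (41.7%), against 21.6% of the windows of 11081 genes tested. CACGTG was in 7 (19.4%, against 12.4%), the YY1 site AAGATGGCG in 3 (8.33%, against 4.47%) and the NRF1 site in 2 (5.56%, against 2.55%). The heat shock element GAANNTTC was in 1 (2.78%, against 6.69%), in the window of HSPD1. The C/EBP-ATF site was in 1 (2.78%, against 0.181%), and the CRE in 1 (2.78%, against 3.65%). TIMM23, TIMM23B and the readthrough share sequence and are not independent windows, and the windows of HSPD1 and HSPE1 hold the same E-box, so it is counted for both. A match describes these letters only.

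Of the opposite-strand neighbours within 500 bases that are not members themselves, 8 passed the filter and were tested. With the combination, TMEM43 and ENTR1 were called lower, and the other 6 (KIAA0586 beside TIMM9, PQBP1 beside TIMM17B, ARFIP2 beside TIMM10B, YIPF2 beside TIMM29, LNP1 beside TOMM70 and PARG beside TIMM23B) had log2 fold changes from -0.48 to 0.06 and adjusted p from 0.145 to 0.845. With either drug alone none of the 8 was called. TMEM43, whose start is 182 bases from that of CHCHD4, had 893 and 931 with the combination, 1006 and 1072 after decitabine alone, 1195 and 1167 after RG3039 alone, and 1458 and 1374 in DMSO. It gave -0.26 ± 0.15, adjusted p = 0.341 with RG3039 and -0.63 ± 0.15, adjusted p = 0.0141 with the combination. ENTR1, whose start is 44 bases from that of PMPCA, had 585 and 701 with the combination, 854 and 952 after decitabine alone, 938 and 907 after RG3039 alone, and 851 and 1095 in DMSO. Its combination libraries were the lowest of the 8, and it gave -0.59 ± 0.19, adjusted p = 0.0494 with the combination. The TMEM43 call was lost at 0.0902 and 0.0617 without combination replicates 1 and 2 and 0.054 without DMSO replicate 1, and the ENTR1 call held only without DMSO replicate 1 and reached 0.261 without combination replicate 1. The differences between each member and its neighbour were not tested.

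Other genes of import and mitochondrial protein turnover were examined in a list of 26 tested genes. With the combination, 11 were called lower and 1 higher, with a median of -0.61, where 12.7% of all genes were called lower and 11.4% higher. With RG3039, 2 were lower and 1 higher (median -0.33), a share of 11.5% called, near the 8.12% of all genes. With decitabine none was called (median -0.21; 9 had an unadjusted p under 0.05 in limma). DNAJA3, a J-protein partner of HSPA9, had 236 and 233 with the combination, 686 and 599.9 after decitabine alone, 487 and 379.6 after RG3039 alone, and 1097 and 1288 in DMSO. All groups were separate from one another, with the combination lowest and DMSO highest. DNAJA3 fell with the combination (-2.34 ± 0.20, adjusted p = 0.000116) and with RG3039 (-1.47 ± 0.20, adjusted p = 0.00297), and both calls stood without each library. AFG3L2, an inner membrane AAA protease, had 2279 and 2138 with the combination, 3369 and 3424 after decitabine alone, 3137 and 2715 after RG3039 alone, and 4223 and 4259 in DMSO. It fell with the combination (-0.94 ± 0.14, adjusted p = 0.00129) and with RG3039 (-0.54 ± 0.14, adjusted p = 0.0422), and the RG3039 call was lost whichever library was left out, at up to 0.237 without RG3039 replicate 2.

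HSPA8, the cytosolic HSP70 that delivers precursors to TOM, had 10172 and 11254 with the combination, 15578 and 17356 after decitabine alone, 17444 and 16507 after RG3039 alone, and 21638 and 27439 in DMSO, and fell with the combination (-1.19 ± 0.15, adjusted p = 0.000611). The cytosolic chaperones HSP90AA1, HSP90AB1 and DNAJA1 fell by 0.79, 0.81 and 0.82 on the log2 scale with the combination. The processing peptidases MIPEP and IMMP2L fell by 1.58 and 1.16, and AGK (a TIM22 subunit), DNAJC11 and TIMMDC1 fell by 1.03, 1.04 and 0.65. OMA1, a stress-activated protease, rose with the combination (1.04 ± 0.31, adjusted p = 0.0345). XPNPEP3, an aminopeptidase that trims imported proteins, rose with RG3039 (2.23 ± 0.54, adjusted p = 0.0343).

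Several of these combination calls missed the threshold when 1 library was left out. Each such fit left 1 library in a group, and calls became fewer among all genes as well. Leaving out combination replicate 1 raised the adjusted p to 0.142 for HSP90AA1, 0.0598 for MIPEP, 0.0528 for IMMP2L, 0.086 for AGK and 0.12 for OMA1. Leaving out combination replicate 2 raised it to 0.0693 for AGK, 0.138 for OMA1, 0.126 for TIMMDC1 and 0.111 for DNAJC11. Without DMSO replicate 1 it was 0.166 for OMA1 and 0.0885 for TIMMDC1, and without DMSO replicate 2 it was 0.0967 for HSP90AA1, 0.11 for AGK and 0.0885 for DNAJC11. The XPNPEP3 call was lost at 0.186 and 0.0803 without RG3039 replicates 1 and 2 and 0.0872 and 0.156 without DMSO replicates 1 and 2.

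Of 18 genes of the mitochondrial stress response that were tested, 6 were called higher and 3 lower with the combination (median 0.36), where 11.4% of all genes were called higher and 12.7% lower. With RG3039, 5 were higher (median 0.30; 4.53% of all genes). With decitabine, 1 of the 18 was higher (median 0.15; 1.74% of all genes). ATF5, a transcription factor of the mitochondrial unfolded protein response, had 4876 and 5626 with the combination, 4341 and 4626 after decitabine alone, 4931 and 5024 after RG3039 alone, and 2590.2 and 2391 in DMSO. All 6 treated libraries lay above both DMSO libraries. ATF5 rose with the combination (1.07 ± 0.14, adjusted p = 0.00066), decitabine (0.85 ± 0.14, adjusted p = 0.0155) and RG3039 (1.00 ± 0.14, adjusted p = 0.00259); the decitabine call was lost at 0.075 and 0.11 without decitabine replicates 1 and 2 and 0.0766 without DMSO replicate 2.

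PINK1, the kinase that accumulates on the outer membrane when import fails, had 1385 and 1455 with the combination, 572 and 653 after decitabine alone, 1852 and 1695 after RG3039 alone, and 473 and 565 in DMSO. The 4 libraries that received RG3039 lay above the 4 that did not. PINK1 rose with the combination (1.46 ± 0.17, adjusted p = 0.000457) and with RG3039 (1.77 ± 0.17, adjusted p = 0.000743), and both calls stood without each library. The ATF4 targets TRIB3 and ASNS rose with RG3039 by 1.14 and 1.09 and with the combination by 0.75 and 0.77. ATF4 itself, DDIT3 and GDF15 were called with neither treatment. Their group means were 15254, 463 and 322 with the combination, 16350, 402 and 303 after RG3039 alone, and 12276, 351 and 153 in DMSO. SESN2 rose by 0.88 with the combination and 0.76 with RG3039, and CHAC1 rose by 1.73 with the combination. The serine and one-carbon enzymes of the list, which ATF4 is also known to induce, were not called higher: PHGDH, SHMT2 and MTHFD2 gave 0.04, -0.25 and -0.51 with the combination, none of them called. PSAT1 (serine synthesis, another ATF4 target), PGAM5 (a mitochondrial phosphatase) and HSF1 (the heat shock factor) fell with the combination by 1.69, 1.33 and 0.67.

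Of these, the combination calls were lost for TRIB3 at 0.0576 and 0.0658 without combination replicates 1 and 2 and 0.0542 without DMSO replicate 2, for ASNS at 0.0565 without combination replicate 2, for CHAC1 at 0.0575 without combination replicate 2 and for SESN2 at 0.0725 without combination replicate 1. HSF1 lost its call when any combination or DMSO library was left out, at 0.161 and 0.0797 without combination replicates 1 and 2 and at 0.071 and 0.107 without DMSO replicates 1 and 2. The RG3039 call of SESN2 was lost whichever library was left out, at up to 0.173 without RG3039 replicate 2.

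Of 11 tested regulators of mitochondrial biogenesis, 7 fell with the combination and none rose (median -1.09), where 12.7% of all genes were called lower. NRF1, GABPA, GABPB1 and YY1 were not called with the combination. Their group means, in that order, were 291, 348, 348 and 8432 with the combination and 286, 410, 470 and 8809 in DMSO. RG3039 had 1 called lower (median -0.45; 3.59% of all genes) and decitabine none (median -0.53; 4 had an unadjusted p under 0.05 in limma). PPARGC1B, a coactivator of mitochondrial genes, had 361 and 498 with the combination, 705 and 866 after decitabine alone, 558 and 557 after RG3039 alone, and 1108 and 1873 in DMSO. It fell with the combination (-1.76 ± 0.27, adjusted p = 0.00168) and with RG3039 (-1.37 ± 0.27, adjusted p = 0.0149), and the RG3039 call was lost at 0.0822 and 0.0831 without RG3039 replicates 1 and 2 and 0.0863 without DMSO replicate 2. MYC, a transcription factor that drives growth genes, had 628 and 500.0 with the combination, 1667 and 959 after decitabine alone, 1721 and 1062 after RG3039 alone, and 2716 and 2954 in DMSO, with -2.34 ± 0.29, adjusted p = 0.000626 for the combination. The mitochondrial DNA factors TFAM, TFB1M and TFB2M fell with the combination by 0.90, 1.19 and 2.54, and the regulators PPRC1 and ESRRA by 1.09 and 1.64. The TFB2M call was lost at 0.0794 without combination replicate 1 and 0.0666 without DMSO replicate 1, and the PPRC1 call at 0.0539 without combination replicate 1.

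**Figure D4:**
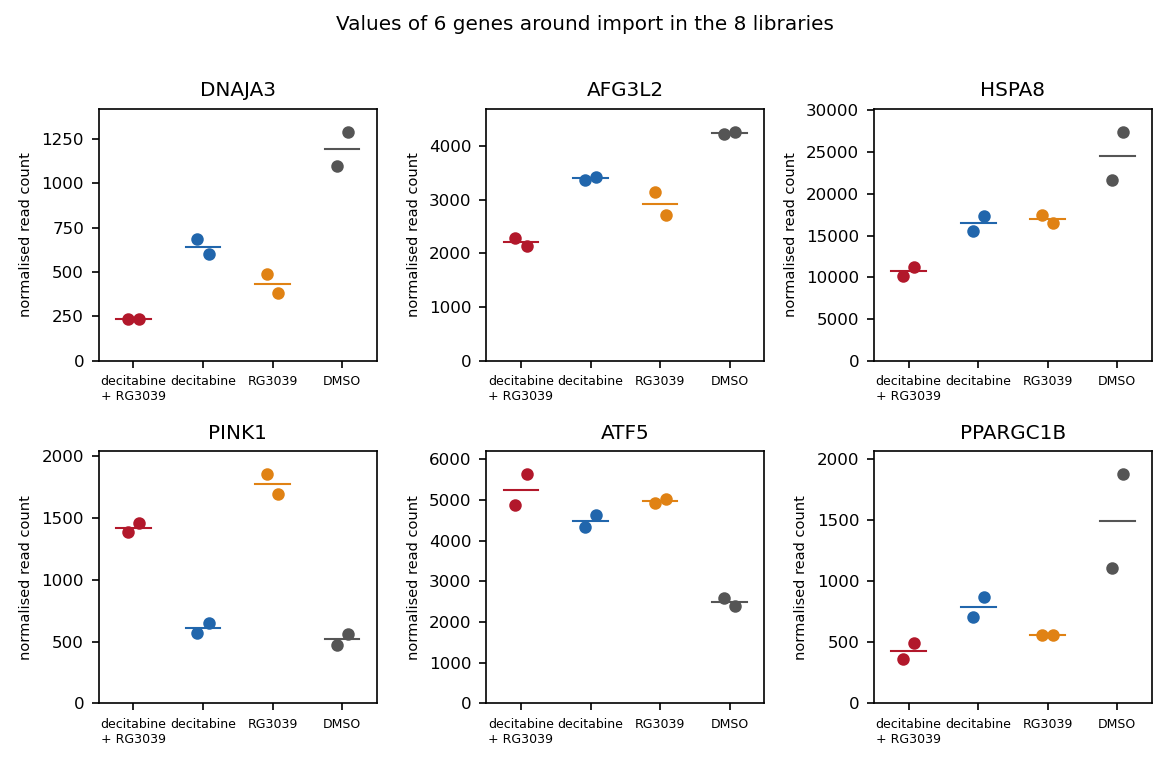
Normalised read count (vertical axis, linear from 0) of 6 genes of the pathway lists in the 8 libraries; points are libraries and lines are group means, n = 2 each. DNAJA3, AFG3L2 and HSPA8 are lowest with the combination and highest with DMSO, PINK1 is high in both groups that received RG3039, and ATF5 is higher in all 6 treated libraries than with DMSO.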

How the data were processed

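The authors deposited 1 table of normalised signal, read counts per gene scaled per library, for 8 libraries of HL-60 cells. After this scaling, the typical gene's ratio to its mean over libraries had the same value in all 8 libraries. Per the labels' protocols, QuantSeq 3′ libraries were read with single-end 50-base reads, and per the submitters' processing notes the tools included STAR, featureCounts, Salmon 1.2.1, DESeq2 and limma, with build hg38. Which tool made which value, and the strand setting, are not given in the sources used here.

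The size of 1 read was recovered from low values. Low values came out as whole reads, within 0.02, for 97.5% to 98.1% of them where a gene had a single annotated transcript, but for 74.4% to 80.8% over all genes, so no count test was run. Genes with a mean of 10 or more (17534) were tested with limma 3.58.1 (R 4.3.3) on log2(value + 1), with a mean per group over all 8 libraries, a variance trend, and Benjamini-Hochberg adjustment per comparison. The fold changes are on the log2(value + 1) scale, which understates changes of low genes. There were 7 comparisons and an F-test, with 4 residual degrees of freedom. The fit was also run on simulated data with independent normal noise and changes planted in the RG3039 group. That run checks the calculation only, and not whether the spread between these libraries is technical.

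The members, the gene lists and the rule for naming genes were chosen with earlier results of these data known. Values in all libraries are given for members called in any comparison and for the leading member of each role; genes of the pathway lists are named where called. Alternatives were the pseudocount, the filter, the variance trend, robust estimates, the libraries fitted together, TMM factors, quantile normalisation, the replicate number as a block and leaving out each library. Summing TIMM23 with the readthrough was added after seeing the data. A gene of the pathway lists is not reported here and was left out of its list's counts and median.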

Additional observations from a re-analysis of the deposited data

How the results depend on the processing

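Each group had 2 libraries, which limits the precision of every test. The median log2 fold change of the members kept its sign and moved by less than the spread between replicates in every alternative for the 6 pairwise comparisons. No call changed direction. Several alternatives leave the group means of the members as they are, so neither result could change there. These were no variance trend, robust estimates, the replicate block, only the groups compared, no filter, and leaving out a library outside the comparison. Without the variance trend, 0 members were called for decitabine against DMSO (2 in the reported fit), 1 for RG3039 (4) and 15 for the combination (26). The combination had 0 against decitabine (9) and 0 against RG3039 (5). Decitabine against RG3039 had 0 (3), and the F-test called 5 (16). Without the trend, calls became fewer among all genes as well. They came to 210 genes for decitabine against DMSO (376 in the reported fit), 718 for RG3039 (1424) and 2847 for the combination (4221). The combination had 432 genes against decitabine (1286) and 147 against RG3039 (399). Decitabine against RG3039 had 427 genes (806), and the F-test called 1425 (3216). For decitabine against DMSO, 1 member was called with a pseudocount of 0.5 (2.00% of all genes), 1 with TMM scaling (2.12%) and 0 with quantile normalisation (1.87%). In the same comparison 0 were called with only the groups compared (0.599%) and 0 with no filter (225 genes, 376 in the reported fit). With only the groups compared, 1 was called for RG3039 against DMSO (2.74% of all genes) and 1 for decitabine against RG3039 (2.33%). With no filter, 5 were called for the combination against decitabine (998 genes, 1286 in the reported fit). Over all settings other than leaving out a library, member calls stood 420 times and missed the threshold 71 times; the cause was not tested.

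Leaving out single libraries gave 0 to 4 members for decitabine, 1 to 5 for RG3039 and 12 to 24 for the combination against DMSO, 0 to 8 for the combination against decitabine, 0 to 8 against RG3039, 0 to 3 for decitabine against RG3039 and 8 to 19 by the F-test. Each of these fits left 1 library in a group, and calls among all genes moved too. They became fewer in every such fit for RG3039 and the combination against DMSO and by the F-test. In the other pairwise comparisons they became fewer without any treated library and more without DMSO replicate 1. These ranges therefore do not describe the members alone.

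Same-numbered libraries were not shown to be paired: correlations of their deviations from the group means ran from -0.08 to 0.16 over 6 pairs. With the replicate block, 4 members were called for decitabine against DMSO (2.99% of all genes, 2.14% without the block), 8 for the combination against RG3039 (3.92%, 2.28%) and 25 by the F-test (21.4%, 18.3%).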
